A study of Mus musculus with 7 samples.

Results

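The 8 genes described here encode the transcriptional coactivators YAP (Yap1) and TAZ (Wwtr1), 2 of their DNA-binding partners (Tead1 and Tead4), and 4 genes that are known targets or regulators of the pair (Ankrd1, Amotl2, Lats2 and Ajuba). They were taken by gene symbol from a table of 21892 genes. All 8 are listed, and all 8 lie among the 13997 genes with a mean of at least 1 TPM (a level scaled for transcript length and to the same total in every library) over the 7 libraries.

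The libraries come from lung tumors with an exon 19 deletion of Egfr, transplanted under the skin of C57BL/6J mice, so every group carries that allele and a host with its own immune system, muscle, fat and skin. Each of the 7 groups has 1 library. A vehicle library was taken at day 3, and libraries of gefitinib, an inhibitor of the EGFR kinase, at day 3 and day 14. In 4 further groups, 14 days of gefitinib were followed by 7 days of vehicle, of DC101 (an antibody against mouse VEGFR2), of 4H2 (the antibody used against PD-1, the other target in the series title) or of DC101 with 4H2, all sampled at day 21. The labels record no treatment for both vehicle libraries where the titles name vehicle. The sources used here give neither the age of the mice nor how many entered a library. Values below are listed in this order of libraries: day 3 vehicle, gefitinib day 3, gefitinib day 14, day 21 vehicle, DC101, 4H2 and the combination.

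YAP and TAZ have no DNA-binding domain of their own and act on genes through the 4 TEAD factors. The Hippo kinase cascade, which ends in LATS1 and LATS2, phosphorylates them and keeps them out of the nucleus, and some of their target genes, among them Lats2 and Amotl2, encode proteins that restrain them in turn. In lung epithelium YAP and TAZ are known for roles in alveolar type 1 cell identity and in the survival of tumor cells under EGFR inhibitors. YAP and TAZ activity is set mainly by where the proteins lie, which RNA levels do not show.

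TEAD factors bind the sequence GGAATG, which reads CATTCC on the other strand. It was searched on both strands of RefSeq promoter windows (GRCm38.p6; 250 bases before and 50 after an annotated start site). Sequence outside these windows was not searched. The table has windows for 6 of the 8 genes, not for Tead1 and Tead4, and a match lies in at least 1 window of each of the 6, while 16.6% of all 27025 genes with a window, and 14.7% of all 32851 windows, hold a match. Of 15 genes with a window from the target list described below, 7 (46.7%) do. These 7 include Ankrd1, Amotl2 and Lats2, already counted among the 6. Matches are shown with 12 bases on either side, 5′ to 3′ along the gene's strand, with the motif in capitals. Counted from the start site of their own window, they lie in the order printed at 210 and 123 bases before it for Ankrd1, 65 before it for Amotl2, 186 and 164 before it for Ajuba, 4 after it for Lats2, 141 before it for Yap1 and 136 before it for Wwtr1. The window's start site need not be the outer end of the gene, and for Amotl2, Lats2 and Yap1 it lies inside the gene's full span given below.
Ankrd1, chr19:36120037-36120066, minus strand: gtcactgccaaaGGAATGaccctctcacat
Ankrd1, chr19:36119950-36119979, minus strand: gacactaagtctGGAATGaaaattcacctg
Amotl2, chr9:102717727-102717756, plus strand: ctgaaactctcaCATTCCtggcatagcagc
Ajuba, chr14:54577830-54577859, minus strand: cgttgatggataCATTCCacagtgcccctc
Ajuba, chr14:54577808-54577837, minus strand: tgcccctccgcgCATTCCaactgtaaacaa
Lats2, chr14:57746102-57746131, minus strand: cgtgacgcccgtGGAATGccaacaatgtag
Yap1, chr9:8004720-8004749, minus strand: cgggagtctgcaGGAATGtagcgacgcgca
Wwtr1, chr3:57576029-57576058, minus strand: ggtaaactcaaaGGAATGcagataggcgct
Ankrd1 and Ajuba each hold 2 matches and the other 4 genes hold 1. A match describes these letters and is not a measured binding site.

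Since each group is 1 library, the spread between replicates is unknown. Differences are log2 ratios of TPM + 1 between 2 libraries, and a gene is counted as higher or lower when that difference is at least 1, a 2-fold difference. The scale makes the difference of a low gene smaller than its TPM ratio. No difference below has a replicate check, so no neighbours in an order of levels can be said to differ beyond their spread.

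The tissue in the libraries differed in ways that touch every result. Skeletal muscle fibre transcripts (13 genes) summed to 311.2, 2309, 4013, 3295, 18415, 86115 and 86224 TPM, and epithelial transcripts (15 genes) to 4713, 1575, 2402, 8649, 5800, 53.2 and 453.0 TPM. The tumor's own markers were near 0 with 4H2, where Epcam was at 3.0 TPM and the lung lineage factor gene Nkx2-1 at 1.1, against 332.3 and 238.3 in the day 21 vehicle library. Fibroblast sums (15 genes) ranged from 3389 TPM (day 3 vehicle) to 27952 TPM (gefitinib, day 3), and leukocyte sums (10 genes) between 230.0 and 2050. The ranges were 247.0 to 623.9 TPM for endothelial, 167.7 to 3268 for pericyte and smooth muscle, 121.0 to 889.3 for adipocyte, 243.9 to 2136 for alveolar type 1, 6239 to 21531 for alveolar type 2 and 81.3 to 1015 for proliferation genes. Single genes carried 2 of these sums with 4H2: Des, which muscle fibres also express, gave 3063 of the 3268 TPM of the pericyte and smooth muscle list, and Lyz2, which macrophages also express, 7571 of the 7817 TPM of the alveolar type 2 list. In that library, against vehicle at day 21, 4 of 9 compared pericyte and smooth muscle genes and 10 of 12 alveolar type 2 genes were lower by 2-fold, and 1 of each list was higher. Of all compared genes, 20% were lower and 10.9% higher in that pair. In such bulk tissue, fewer cells of a type and less RNA per cell cannot be told apart.

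**Figure D1:**
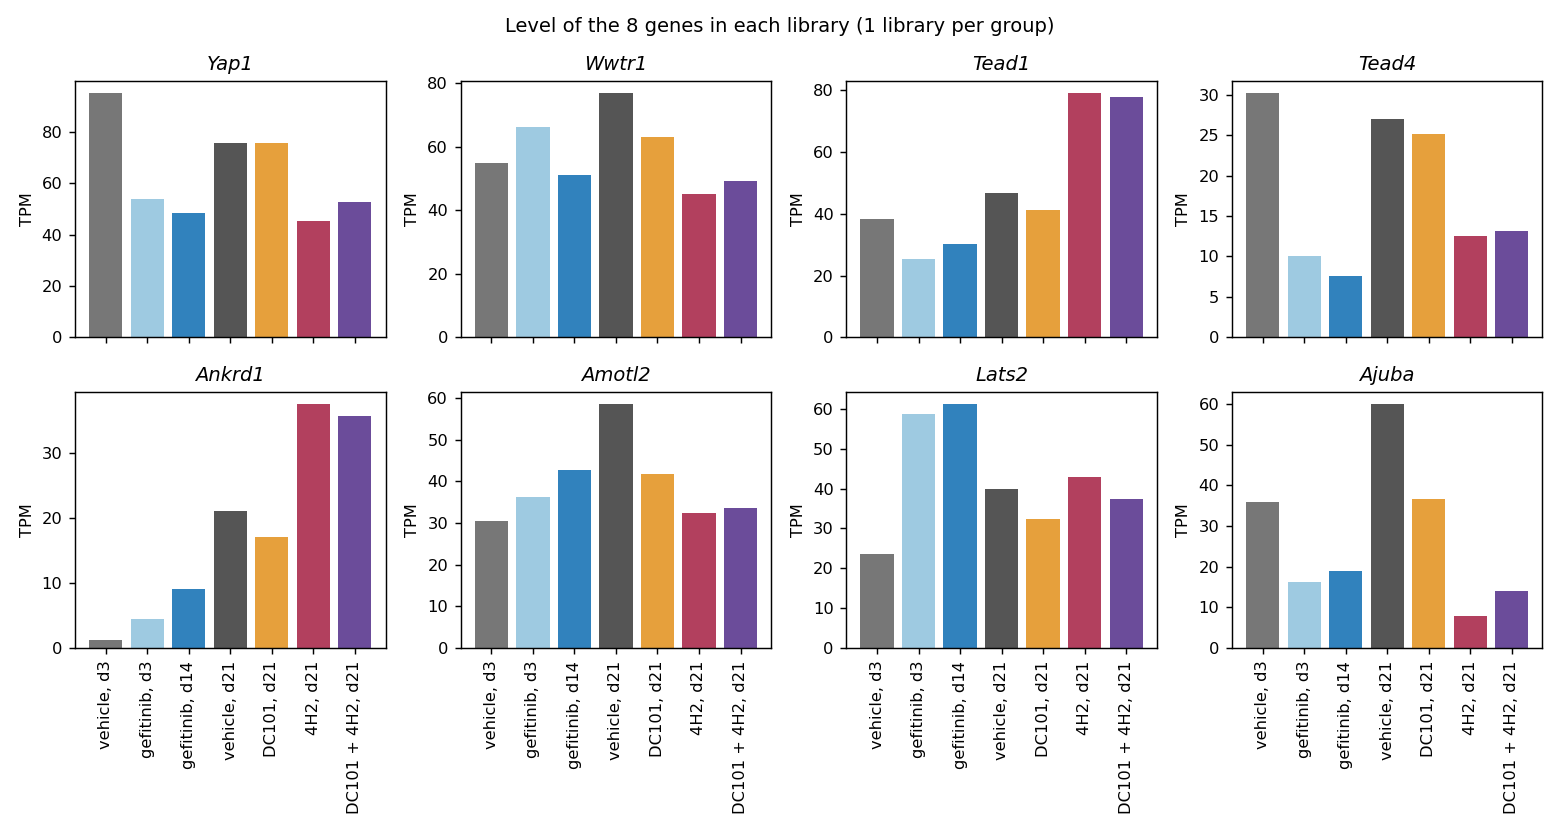
Level in TPM (vertical axis, from 0, scaled per gene) of the 8 genes in the 7 libraries (horizontal axis). Each bar is 1 library with no error bar, and the 4 groups at d21 had 14 days of gefitinib before the agent named. Yap1 and Tead4 were highest in the day 3 vehicle library, Wwtr1, Amotl2 and Ajuba in the day 21 vehicle library, Lats2 at day 14 of gefitinib, and Tead1 and Ankrd1 with 4H2.

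The coactivators spanned a narrow range. Yap1 (chromosome 9, 7931999 to 8004638 in GRCm38.p6) was at 95.0, 53.7, 48.5, 75.6, 75.5, 45.4 and 52.7 TPM. The vehicle and DC101 libraries were the high ones, and both gefitinib libraries and both with 4H2 were low. Wwtr1 (chromosome 3, 57455644 to 57575910) was at 54.9, 66.2, 51.0, 76.9, 63.0, 45.1 and 49.1 TPM. Its highest value was 1.71 times its lowest, against 2.09 times for Yap1. Yap1 transcripts outnumbered those of Wwtr1 by 1.73 to 1 in the day 3 vehicle library, and the ratio lay between 0.811 and 1.20 in the other 6.

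Neither coactivator gene was 2-fold apart in any of the 6 main comparisons. Of all compared genes, 4.24% (DC101) to 35.5% (gefitinib, day 14) were 2-fold apart in those comparisons. The nearest coactivator value was that of Yap1 at day 14 of gefitinib, with a log2 difference of -0.96 from day 3 vehicle, and -0.81 at day 3. For that day 14 difference, a rescaling of TPM without muscle, ribosomal, histone and other abundant genes gave -1.05. Wwtr1 stood at 0.27 and -0.10 in the same comparisons. In the same libraries the epithelial sum was at 0.334 and 0.510 of its day 3 vehicle level, and the part of tissue makeup in the Yap1 values was not tested. With 4H2, Yap1 held 60.1% and Wwtr1 58.6% of the day 21 vehicle level, where the epithelial sum held 0.615%.

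The makeup of the TEAD family differed across the libraries. Tead1 (chromosome 7, 112679356 to 112906784), which is abundant in heart and skeletal muscle, was at 38.2, 25.4, 30.1, 46.7, 41.4, 79.1 and 78.0 TPM. Both libraries with 4H2 stood above all others. Tead4 (chromosome 6, 128227143 to 128300813), known for its part in the early embryo and in muscle differentiation, was at 30.2, 10, 7.6, 27.0, 25.1, 12.5 and 13.2 TPM. Both vehicle libraries and DC101 were high, and the other 4 were low.

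From the family list, Tead2 was at 143.1, 24.3, 26.0, 143.2, 130.4, 7.8 and 23.8 TPM, and Tead3 at 44.9, 31.4, 32.5, 40.4, 35.7, 14.6 and 17.2 TPM. The 4 genes summed to 256.4 TPM in the day 3 vehicle library and 257.3 in the day 21 vehicle library. The sum was 91.1 and 96.2 TPM at days 3 and 14 of gefitinib, 232.6 under DC101, 114.0 under 4H2 and 132.2 under both antibodies. Tead2 made up 55.8%, 55.7% and 56.1% of that sum in the day 3 vehicle, day 21 vehicle and DC101 libraries, and Tead1 14.9%, 18.2% and 17.8%. With 4H2, Tead1 made up 69.4% and Tead2 6.84%, and with the combination 59.0% and 18.0%. At both gefitinib times 2 of the 4 family members, Tead2 and Tead4, were lower by 2-fold, and both were higher again in the day 21 vehicle library against day 14. None was 2-fold apart with DC101, 3 were lower with 4H2 and 2 with the combination, all on TPM as deposited. Of all compared genes, 14.4% and 12.7% were lower at days 3 and 14 of gefitinib, and 7.62% higher in the day 21 vehicle library. With 4H2 and the combination 20% and 17.0% were lower, and with DC101 4.24% were 2-fold apart. The Tead4 share stayed between 7.90% and 11.8% in all 7 libraries.

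**Figure D2:**
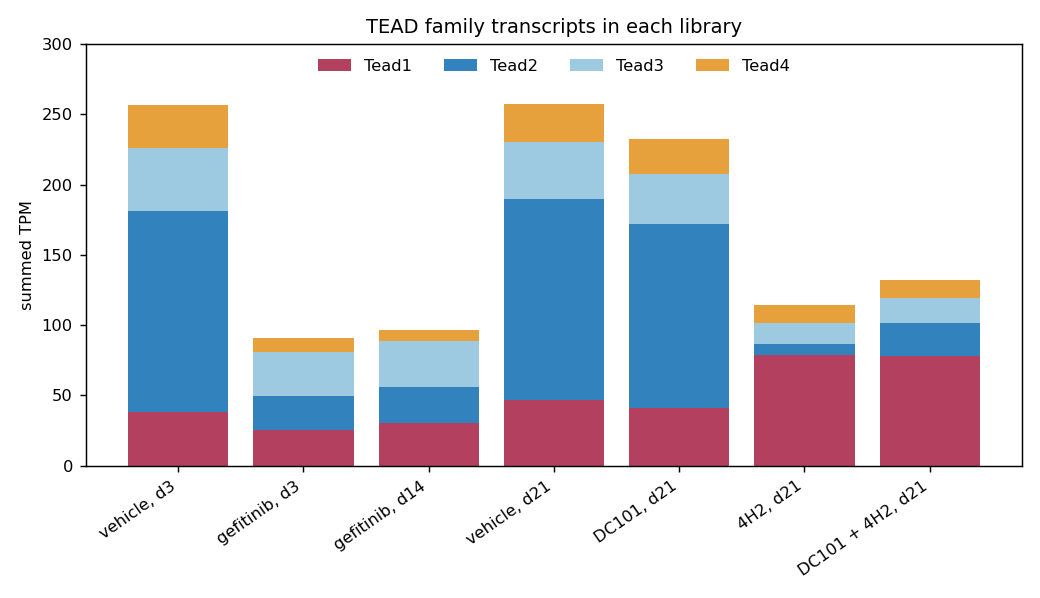
Stacked levels in TPM (vertical axis, from 0) of Tead1, Tead2, Tead3 and Tead4 in each of the 7 libraries (horizontal axis), 1 library per bar. The summed height is 256.4 and 257.3 TPM in the 2 vehicle libraries and 91.1 to 132.2 TPM with gefitinib, 4H2 or the combination, and Tead1 takes most of the bar with 4H2.

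Ankrd1 (chromosome 19, 36111965 to 36119844) encodes an ankyrin repeat protein of heart and muscle and is a widely used readout of YAP activity. It was at 1.2, 4.4, 9.0, 21, 17.0, 37.5 and 35.7 TPM. The day 3 vehicle library was lowest and both 4H2 libraries highest, a span of 31.2 times. Its paralogs of the same muscle family, Ankrd2 and Ankrd23, were at 1.9, 1.2, 3.4, 3.6, 11.3, 37.6 and 48.8 TPM, and at 11.4, 27.4, 65.7, 83.1, 185.4, 483.8 and 459.5 TPM. Both were also highest in the 4H2 and combination libraries, next to the muscle fibre sums given above. Of the 3 family members, 2 were higher by 2-fold in each main comparison but that of the day 21 vehicle library with day 14, where Ankrd1 was, and none was lower. The shares of all genes that were higher are given with the comparisons below and lie between 3.12% and 22.7%. The higher pair was Ankrd1 and Ankrd23 under gefitinib, and Ankrd2 and Ankrd23 with DC101, 4H2 and the combination.

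Ankrd1 did not follow the muscle sum at every step. From day 14 of gefitinib to the day 21 vehicle library, Ankrd1 was 2.33 times as high while the muscle sum was at 0.821 of its day 14 level. Between the day 21 vehicle and DC101 libraries, Ankrd1 was at 0.810 of its vehicle level while the muscle sum was 5.59 times as high. Per 1000 TPM of the muscle list, Ankrd1 stood at 3.86, 1.91, 2.24, 6.37, 0.923, 0.435 and 0.414 TPM. The day 21 vehicle library was the high one on this scale, where Ankrd1 was at 0.253 of the Ankrd23 level against 0.0775 to 0.161 in the other 6. Genes of immature or regenerating muscle (8 genes) summed to 2.2, 41.0, 47.2, 21.2, 45.8, 138.6 and 177.0 TPM, lower in the day 21 vehicle library than at day 14 of gefitinib. The share of Ankrd1 RNA that came from muscle was not tested.

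**Figure D3:**
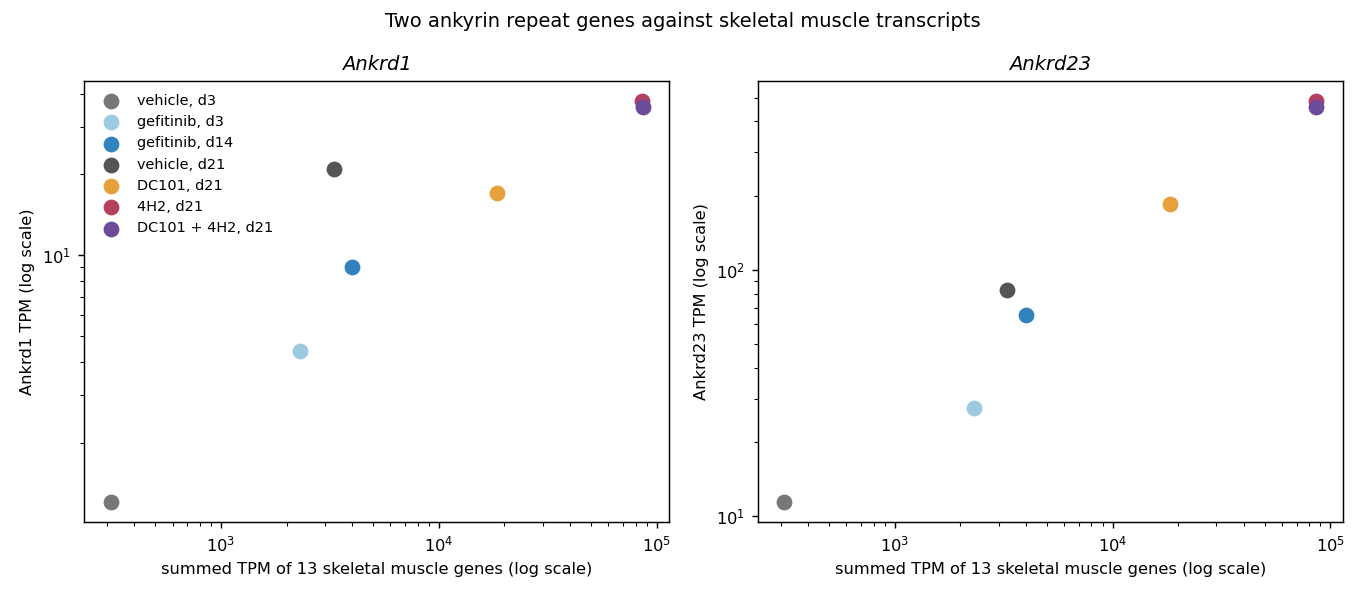
Ankrd1 (left) and its paralog Ankrd23 (right) in TPM against the summed TPM of 13 skeletal muscle genes, both axes on a log scale, with 1 point per library. The day 21 vehicle point stands higher for Ankrd1 (21 TPM) than the DC101 point (17.0 TPM), whose muscle sum is 5.59 times as large, while Ankrd23 is at 83.1 and 185.4 TPM.

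Amotl2 (chromosome 9, 102717091 to 102733418) encodes an angiomotin that holds YAP at junctions. It was at 30.5, 36.3, 42.7, 58.6, 41.7, 32.4 and 33.5 TPM. The day 21 vehicle library was the highest, and the 4H2 libraries lay near the day 3 vehicle level. Its highest level was 1.92 times its lowest, and it was within 2-fold in all 10 comparisons. Of all compared genes, 4.24% to 35.5% were 2-fold apart in a single comparison. How many genes were within 2-fold in all 10 was not counted.

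Lats2 (chromosome 14, 57689662 to 57746212), the kinase gene that is itself a YAP target, was at 23.5, 58.7, 61.3, 39.8, 32.3, 42.9 and 37.5 TPM. The gefitinib libraries were the high ones and the day 3 vehicle library the low one. Another protein-coding gene model, Gm49361, overlaps Lats2 on its strand, so its reads may be included. Its paralog Lats1 was at 44.0, 33.2, 40.4, 48.4, 39.6, 24.4 and 25.0 TPM. The ratio of Lats2 to Lats1 was lowest in the day 3 vehicle library, at 0.534, and stood at 1.77 and 1.52 in the gefitinib libraries of days 3 and 14. It was 0.822 and 0.816 in the day 21 vehicle and DC101 libraries, and 1.76 and 1.5 with 4H2 and the combination.

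Ajuba (chromosome 14, 54567469 to 54577661) encodes a LIM protein of cell junctions that inhibits the LATS kinases. It was at 35.9, 16.3, 18.9, 60, 36.5, 7.9 and 14.0 TPM, a span of 7.59 times. The day 21 vehicle library was highest and the 4H2 library lowest, as for the epithelial sum. Its relative Wtip was at 44.0, 26.7, 23.3, 40.2, 37.2, 14.8 and 18.3 TPM, and Limd1 at 93.5, 68.2, 80.1, 77.7, 79.4, 60.6 and 59.1 TPM.

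In the day 3 gefitinib library, Ankrd1 (log2 difference 1.30 from the day 3 vehicle library) and Lats2 (1.28) were higher and Tead4 (-1.5) and Ajuba (-1.09) lower. These are 4 of 8, beside 35.2% of all compared genes at least 2-fold apart in this pair (20.8% higher and 14.4% lower). The call on Ajuba rests on the scale, since median-of-ratios scaling, which sets the typical gene equal between libraries, gave -0.98 and with it 2 higher and 1 lower. At day 14, against the same vehicle library, Ankrd1 (2.18) and Lats2 (1.35) were higher and Tead4 (-1.86) lower, 3 of 8 beside 35.5% of all genes (22.7% higher and 12.7% lower). The rescaled Yap1 value given above would make that 2 higher and 2 lower. Both comparisons share that vehicle library. Between day 3 and day 14 of gefitinib none of the 8 was 2-fold apart, beside 7.66% of all genes (4.93% higher and 2.73% lower). Ankrd1, at 9.0 against 4.4 TPM, came nearest with 0.89.

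The tumor left on vehicle for 7 days after gefitinib was set against day 14 of gefitinib. Of the 8 genes, 7 were higher, as were 48.8% of all compared genes. By 2-fold, 3 were higher and none lower, beside 15.5% of all genes (7.62% higher and 7.89% lower). The 3 were Tead4 (27.0 against 7.6 TPM, 1.70), Ajuba (60 against 18.9, 1.62) and Ankrd1 (21 against 9.0, 1.14). Lats2 went the other way at -0.61. The median of the 8 was 0.62, against -0.01 for all compared genes. The epithelial sum was 8649 against 2402 TPM in the same pair, and its part in these values was not tested. Between the vehicle libraries of day 21 and day 3, Ankrd1 alone of the 8 was 2-fold apart (3.32), beside 18.4% of all genes (15.3% higher and 3.11% lower). Amotl2 was at 0.92, Lats2 at 0.74 and Ajuba at 0.73 in that pair, and Yap1 at -0.33.

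With DC101, against vehicle at day 21, none of the 8 was 2-fold apart, beside 4.24% of all genes (3.12% higher and 1.11% lower). All 8 lay below vehicle, between -0.70 (Ajuba) and -0.00 (Yap1), where 58.2% of all compared genes did. Yap1, at 75.5 against 75.6 TPM, lay at 0.04 and 0.03 under the 2 rescalings. Amotl2 lay at -0.48, and Ankrd1 and Lats2 both at -0.29.

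With 4H2, against vehicle at day 21, Ajuba (-2.78) and Tead4 (-1.05) were lower and none of the 8 was higher by 2-fold, beside 30.9% of all genes (10.9% higher and 20% lower). All compared genes had a median of -0.21 in this pair, which median-of-ratios scaling moved to 0.02. Relative to that median, Ajuba stood at -2.57, Tead4 at -0.84, Ankrd1 at 1.02 and Tead1 at 0.96. Median-of-ratios scaling accordingly gave 1 higher (Ankrd1, 1.05) and 1 lower (Ajuba), with Tead4 at -0.81. With the combination, Ajuba (-2.02) was lower, 1 of 8 beside 28.7% of all genes (11.7% higher and 17.0% lower), and Tead4 lay at -0.98. Here the median over all genes, -0.17, moved to 0.05 with that scaling, and relative to the median Ajuba stood at -1.85 and Tead1 at 0.90. Lats2 was at 0.11 and -0.08 in these comparisons, with the second at 0.15 under median-of-ratios scaling.

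The combination and 4H2 libraries were close, with none of the 8 at least 2-fold apart, beside 5.41% of all genes (4.94% higher and 0.464% lower). The largest difference was 0.75 for Ajuba (14.0 against 7.9 TPM), next to an epithelial sum of 453.0 against 53.2 TPM. Against DC101 alone, the combination had Ankrd1 higher (1.03) and Ajuba lower (-1.32), 2 of 8 beside 25.4% of all genes (11.1% higher and 14.3% lower). Tead1 lay at 0.90 there, and at 1.09 under median-of-ratios scaling, which gave 2 higher and 1 lower.

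A list of 22 conserved YAP and TAZ target genes, which includes Ankrd1, Amotl2 and Lats2, gave a wider view. It was written from general knowledge with earlier results of these data known, and 21 of its genes passed the filter; Foxf2 did not. After 3 days of gefitinib 13 of the 21 were higher and 3 lower, beside 20.8% and 14.4% of all genes, with a list median of 1.23 against -0.09 for all genes. Median-of-ratios scaling gave 13 and 2, and the rescaling without abundant genes 11 and 3. At day 14 the numbers were 13 and 2, beside 22.7% and 12.7%, with a median of 1.35 against 0.03. The day 3 vehicle library was the lowest of the 7 for 13 of the 21 targets. How many of all compared genes were lowest there was not counted. Both gefitinib comparisons use this library as their reference, so these 13 are no separate observation. The fibroblast, leukocyte and muscle fibre sums of the day 3 vehicle library were also the lowest of the 7. Ctgf (now Ccn2), a secreted matrix protein gene, was at 15.6, 74.2, 226.3, 116.8, 57.2, 41.7 and 36.3 TPM. Axl, a receptor tyrosine kinase gene, was at 46.6, 353.1, 624.7, 240.6, 219.0, 324.1 and 259.6 TPM, and Ccdc80 at 19.8, 166.0, 102.6, 48.0, 49.1, 58.1 and 83.0 TPM.

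F3, the tissue factor gene, was at 3.2 TPM in day 3 vehicle and 31.3 and 31.2 under gefitinib. The lower targets at day 3 were Fjx1 (6.6 against 18.9 TPM), Gadd45a, a stress response gene (26.7 against 69.4), and Arhgef17 (42.7 against 92.1). Several of these targets are also expressed by fibroblasts. The fibroblast sum was 8.25 and 4.18 times its day 3 vehicle level at days 3 and 14 of gefitinib, and its part in the list was not tested.

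In the day 21 vehicle library against day 14 of gefitinib, 2 of the 21 targets were higher and 2 lower, beside 7.62% and 7.89% of all genes, with a median of -0.09. Cyr61 (now Ccn1), a matricellular protein gene, was at 23.9, 96.1, 100.5, 365.0, 147.4, 55.9 and 37.2 TPM, highest in the day 21 vehicle library like Amotl2. Ankrd1 was the other higher target. The lower ones were Axl (240.6 against 624.7 TPM) and Ccdc80 (48.0 against 102.6).

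With DC101, 17 of the 21 targets lay below vehicle, where 58.2% of all genes did, and the list median was -0.40 against -0.05 for all genes. Igfbp3 (27.9 against 120.4 TPM), Cyr61 (147.4 against 365.0) and Ctgf (57.2 against 116.8) were lower by 2-fold, and none was higher, beside 1.11% and 3.12% of all genes. Under either rescaling 2 were lower by 2-fold. Set against the same vehicle library, 4H2 had 1 target higher (Asap1, 47.7 against 23.3 TPM) and 6 lower, and the combination none higher and 6 lower. These counts, 7 and 6 of 21, lie near the 30.9% and 28.7% of all genes that were 2-fold apart in the same pairs. By direction, 10.9% of all genes were higher and 20% lower with 4H2, and 11.7% and 17.0% with the combination. For the targets, median-of-ratios scaling gave 3 higher and 5 lower with 4H2, and 3 higher and 4 lower with the combination. Cyr61 was lowest of the list in both (-2.69 and -3.26), while Nuak2, a kinase gene, was at 21.1 and 21.7 against 62.2 TPM and Arhgef17 at 27.4 and 35.2 against 78.7.

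**Figure D4:**
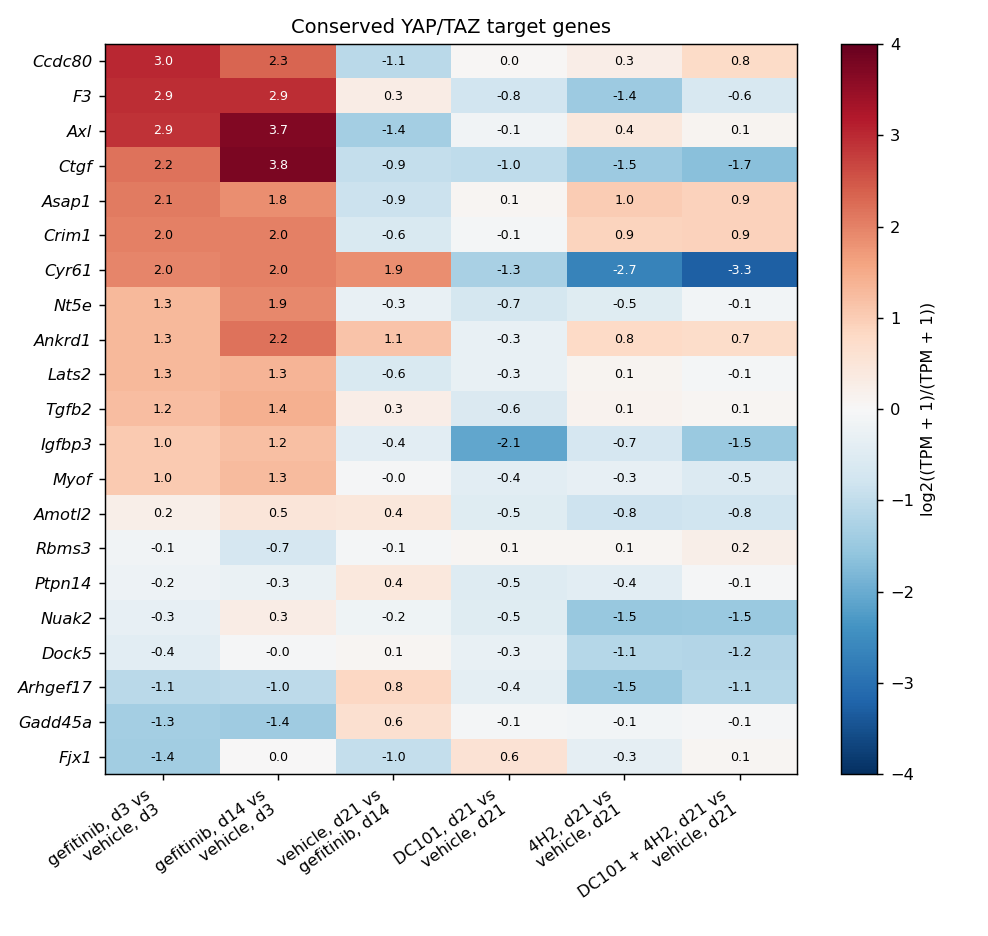
Log2 ratio of TPM + 1 between 2 libraries (colour and printed value) for 21 conserved YAP/TAZ target genes (rows, ordered by the first column) in the 6 main comparisons (columns). Positive values mean a higher level in the library named first, and d21 groups followed 14 days of gefitinib. The list median is 1.23 and 1.35 in the first 2 columns, which share a vehicle library, and -0.40 in the DC101 column.

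The Hippo kinase core (Stk3, Stk4, Sav1, Mob1a, Mob1b, Lats1 and Lats2) had Lats2 as its single member past 2-fold, at days 3 and 14 of gefitinib, beside 35.2% and 35.5% of all genes. In each of the other 4 main comparisons 0 of 7 were 2-fold apart. The shares of all genes there were 15.5% for day 21 vehicle, 4.24% for DC101, 30.9% for 4H2 and 28.7% for the combination. Lats1 came close, at -0.96 with 4H2 and -0.93 with the combination, both against the day 21 vehicle library. For the other 5 genes the highest level was between 1.16 (Stk3) and 1.59 (Mob1a) times the lowest.

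Of 12 upstream activators, 3 were higher and 1 lower at both gefitinib times, none was 2-fold apart in the day 21 vehicle library or with DC101, and 1 was higher and 2 lower with 4H2 and with the combination. At 4 of 12 and 3 of 12, the counts under gefitinib, 4H2 and the combination are near the share of all genes 2-fold apart. That share was 35.2% and 35.5% under gefitinib, 30.9% with 4H2 and 28.7% with the combination. It was 15.5% for the day 21 vehicle library against day 14, and 4.24% with DC101. Wwc1, which encodes the scaffold KIBRA, was at 191.8, 58.1, 86.4, 155.3, 136.7, 2.1 and 9.9 TPM, lowest in the 2 libraries where epithelial sums were lowest. The giant cadherin genes Fat4 and Dchs1 were at 16.6 and 26.7 TPM at day 3 of gefitinib against 1.4 and 5.1 in vehicle. Tnik was at 9.1 and 9.7 TPM with 4H2 and the combination against 1.9 in vehicle.

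The 7 angiomotin, LIM and junction genes split within the list. At days 3 and 14 of gefitinib, 1 was higher and 1 and 0 lower. In the day 21 vehicle library 1 was higher than at day 14, with DC101 also 1, and with 4H2 and the combination 2 were higher and 2 lower. The shares of all genes 2-fold apart in these pairs were 35.2%, 35.5%, 15.5%, 4.24%, 30.9% and 28.7%, in the same order. Amot was at 0.4, 5.0, 3.2, 2.4, 10.2, 45.9 and 48.5 TPM and Amotl1 at 65.0, 39.6, 37.0, 49.3, 67.1, 135.4 and 152.8 TPM. Both were highest in the 2 libraries with the largest muscle sums, while their paralog Amotl2 was not.

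The vestigial-like cofactors, which compete with YAP for TEAD factors, diverged too. Vgll2, a gene of skeletal muscle, was at 0.4, 2.5, 5.9, 4.9, 9.5, 95.1 and 52.2 TPM. Vgll4, a TEAD corepressor gene, was at 141.6, 48.7, 51.8, 88.7, 103.0, 28.2 and 30.2 TPM. Vgll1 was at 15.4, 0.8, 1.9, 8.8 and 8.4 TPM, listed at 0 with 4H2 and at 1.2 with the combination. Vgll3 ranged from 1.6 TPM in the day 3 vehicle library to 13.4 TPM with the combination. Of the 4, 2 were higher and 2 lower at each gefitinib time and with the combination, 1 was higher at day 21 on vehicle than at day 14, none was 2-fold apart with DC101, and 1 was higher and 2 lower with 4H2. The list has only 4 genes, and the shares of all genes 2-fold apart were 35.2% and 35.5% under gefitinib, 15.5% for day 21 vehicle, 4.24% for DC101, 30.9% for 4H2 and 28.7% for both antibodies.

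For each of the 8 genes, the genes with the most alike profile were ranked by Pearson's r of log2(TPM + 1) over the 7 libraries, among 11590 genes with a mean of at least 5 TPM. This is a description over 7 libraries that share tissue makeup, and it compares shape, not size. Yap1 was most like Nhp2l1 (r = 0.998), Acp1, Knstrn, Nle1 and the mitotic kinase gene Bub1 (r = 0.995). Bub1 spanned 32.8 to 1.2 TPM, far more than Yap1. Wwtr1 was most like Commd10 (r = 0.980), Ripk3, Paqr4, Cdc42ep5 and Klf5. Tead1 was most like Kcmf1 (r = 0.994), Cd99l2, Zak, Hoxa5 and Lrrc28, and Tead4 like Mmp15 (r = 0.987), Fyttd1, Psmc3ip, Dusp18 and Cdk2ap1.

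Ankrd1 was most like the phosphatase gene Dusp8 (r = 0.990), Gm32584, Prkar2a, Spns2 and Ttc4. Dusp8 was at 1.1, 2.9, 5.0, 10.9, 6.9, 13.5 and 11.4 TPM, higher in the day 21 vehicle library than in the 3 earlier ones and lower with DC101, as Ankrd1 was. Since Dusp8 was picked for its likeness over these same libraries, the shared steps are no separate observation. Amotl2 was most like Rhobtb1 (r = 0.967), Plaur, Spp1, Mapk11 and Mapk6. Plaur, the urokinase receptor gene, reached 217.7 TPM in the day 21 vehicle library against 31.9 to 117.0 elsewhere. Lats2 was most like Ppt1 (r = 0.998), Kit, Slc23a2, Mgat1 and P2ry6, and Ajuba like Tbc1d2 (r = 0.995), Gss, Tax1bp1, Dpp3 and Tubb2b. With the 4H2 and combination libraries left out, a choice made after seeing the data, 3 of the 5 stayed among the first 5 for Wwtr1, 2 for Amotl2, 1 each for Ankrd1 and Ajuba, and 0 for Yap1, Tead1, Tead4 and Lats2.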

How the data were processed

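RNA was extracted from frozen tumors, depleted of ribosomal RNA and made into directional libraries, per the labels' protocols. The authors deposited TPM values for 21892 genes, rounded to 0.1 and with nearly the same column total in each library. The submitters' processing notes name GRCm38.p6. Not given in the sources used here: aligner, counting tool, annotation. Because TPM carries no read numbers, depth is unknown and intervals for counting error cannot be had. In the GENCODE annotation 5 of the 8 genes overlap another gene, 2 of them on the same strand (Tead1 and Lats2), and whether strand was used in counting is not given, so their values can include its reads.

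Differences are log2((TPM + 1)/(TPM + 1)) for 13997 genes with a mean of at least 1 TPM, in 6 main and 4 secondary comparisons of 1 library each, with no test. Members and lists were chosen with earlier results of these data known. Named from the 8 pathway lists are the TEAD factors and muscle ankyrin repeat genes, and, per main comparison, up to 3 genes in each direction that are 2-fold apart with at least 5 TPM in either library. Chosen after their values were seen were Lats1, Stk3, Mob1a, Limd1 and the full profiles over 7 libraries of genes the rule named in 1 comparison. Alternatives were a pseudocount of 0.1 or of 5, all genes kept, a mean of at least 5 TPM, and 2 rescalings (median of ratios, and the total without muscle, histone, hemoglobin, ribosomal protein and the 20 most abundant genes). Python 3.11.15, pandas 2.3.3 and numpy 2.4.6 were used.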

Additional observations from a re-analysis of the deposited data

How the results depend on the processing

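Of 480 values of the 8 genes (80 differences under 6 alternatives), 467 kept their side of the 2-fold threshold and 13 did not. In 4 the sign changed, none of them a difference of 2-fold or more. Keeping all genes, or those with a mean of at least 5 TPM, cannot alter a member's difference. The 80 values under each of these settings were therefore fixed in advance. All 13 changes came from the pseudocounts and rescalings. A pseudocount of 0.1 gave 2 of the 8 genes 2-fold apart for the combination against vehicle at day 21, and 1 for day 14 against day 3 of gefitinib. A pseudocount of 5 gave 2 for day 3 of gefitinib against vehicle, 1 for 4H2 against vehicle at day 21, and 1 for the combination against DC101. It also took Ankrd1 under the threshold in the day 21 vehicle library against day 14 of gefitinib, from 1.14 to 0.89. The rescaling without muscle and abundant genes gave 1 for 4H2 against vehicle, with Tead4 just under the threshold. The number of targets 2-fold apart in either direction stayed within 1.5 times under all 6 alternatives, but its split did not: median-of-ratios scaling gave 3 higher and 5 lower with 4H2 (1 and 6 on TPM as deposited) and 3 higher and 4 lower with the combination (0 and 6). The 13 belong to Tead4, Ankrd1, Ajuba, Yap1 and Tead1. The low level of Ankrd1 in the day 3 vehicle library (1.2 TPM) makes its difference depend on the pseudocount, 1.30 with a pseudocount of 1 and 0.60 with 5. No paired analysis was possible because each group has 1 library. With 1 library per group, no replicate could be left out.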
